A study of Homo sapiens with 6 samples.

Results

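The chemokine genes CXCL1, CXCL2, CXCL3, CXCL5, CXCL8 and CCL2, the IL6-family cytokine genes IL6, IL11 and LIF, and the interleukin-1 gene IL1A were examined in norepinephrine-treated lung cancer cells. The 10 genes were taken by gene name from a table of 26025 genes, of which 8 had a row. CXCL5 and IL6 had no row and were not analysed here. The cells were of NCI-H1299, a human line established from a non-small cell lung cancer, with no engineered allele named in the labels. Cells were starved in DMEM and then kept for 48 h in RPMI-1640 with little serum, either with 10 µM norepinephrine (NE, 3 libraries) or with vehicle (Ctrl, 3 libraries), which the labels name both as DMSO and as PBS. No label says that the libraries came from separate cultures, so p-values measure the spread between these libraries. RNA was sequenced in bulk, and the deposited values are normalized counts, that is, reads on a gene divided by 1 size factor per library.

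CXCL1, CXCL2, CXCL3 and CXCL8 encode ELR-positive CXC chemokines, secreted ligands that draw neutrophils through the receptors CXCR1 and CXCR2. Their genes lie in 1 cluster, and their promoters carry sites for NF-kB, the factor that inflammatory signals such as IL1 release from its inhibitors. LIF, IL11 and IL6 signal through a shared receptor subunit, gp130 (the IL6ST product), each with its own partner receptor, and act on JAK kinases and STAT3, while SOCS proteins feed back on the kinases. IL1A encodes interleukin 1 alpha, which acts through IL1R1, and CCL2 encodes a monocyte chemokine. The mRNAs of many of these genes hold AU-rich elements that set their decay.

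RefSeq promoter windows of GRCh38.p14, from 250 bases before to 50 bases after the transcription start, were searched on both strands for 6 of the 8 listed genes: CXCL1, CXCL2, CXCL3, CXCL8, IL11 and IL1A. LIF and CCL2 were not searched. Counts and shares below take 1 window a gene, the first listed. IL1A has 2 windows, and its second held the same kinds of match as its first. The letters GGNNTTTCC, a form of the kB motif bound by NF-kB, were found in 4 of the 6 genes, in 6.26% of 27305 promoters and in 6.65% of the 10481 promoters of tested genes. The stretches around them are shown 5′ to 3′ on the strand of the gene because these 4 chemokine genes share the motif. Capitals mark the kB matches and, in CXCL8, also an AP-1 match (TGANTCA).
CXCL8, chr4:73740428-73740516, plus strand: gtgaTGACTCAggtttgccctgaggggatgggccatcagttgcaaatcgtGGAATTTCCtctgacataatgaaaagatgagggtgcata
CXCL1, chr4:73869285-73869373, plus strand: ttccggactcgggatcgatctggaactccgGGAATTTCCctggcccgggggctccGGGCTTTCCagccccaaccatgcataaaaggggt
CXCL3, chr4:74038709-74038797, minus strand: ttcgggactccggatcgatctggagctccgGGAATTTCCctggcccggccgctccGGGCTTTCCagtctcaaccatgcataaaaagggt
CXCL2, chr4:74099214-74099302, minus strand: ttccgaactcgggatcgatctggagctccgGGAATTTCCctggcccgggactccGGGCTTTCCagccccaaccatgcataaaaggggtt

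The 4 windows held the same 9 letters, GGAATTTCC, starting at -78 in CXCL1 and CXCL3, at -77 in CXCL2 and at -91 in CXCL8, counted from the start site. CXCL1, CXCL2 and CXCL3 held a second match, GGGCTTTCC, at -53 in each. Over the aligned windows CXCL1 and CXCL3 were identical at 82.5% of columns, CXCL2 and CXCL3 at 73.7% and CXCL1 and CXCL2 at 69.8%. CXCL8 was identical to the other three at 43.1% to 44.2% of columns. The AP-1 letters TGANTCA, bound by FOS and JUN proteins, were found in CXCL8, IL11 and IL1A, 3 of the 6 genes, in 7.76% of all promoters and in 4.46% of those of tested genes. The IL11 stretch is shown because IL11, a called gene, held no kB match in its window, and the AP-1 match is in capitals.
IL11, chr19:55370513-55370599, minus strand: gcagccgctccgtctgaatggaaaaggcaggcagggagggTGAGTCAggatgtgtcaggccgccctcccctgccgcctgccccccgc

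The full cAMP response element, TGACGTCA, to which CREB binds, was found in 0 of the 6 genes, in 1.98% of all promoters and in 3.31% of those of tested genes. Its half-site TGACG was found in CXCL2, CXCL3, CXCL8 and IL1A, 4 of the 6 genes, in 25.01% of all promoters and in 34.5% of those of tested genes. The half-site of CXCL2, read as its reverse complement in capitals, lies between -164 and -160 from the start.
CXCL2, chr4:74099340-74099374, minus strand: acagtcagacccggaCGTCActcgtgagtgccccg

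These matches describe letters in a window and not bound sites.

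Before the values, the libraries were compared. The reads on genes recovered from the deposited values ranged from 16852751 to 17979206 per library. Ctrl replicate 3 stood apart from the other Ctrl libraries, with 7305 genes at 0 reads against 4829 and 4833. Differences between NE and Ctrl went with exonic GC content, at a Spearman correlation of -0.644 across the 14955 tested genes with a GC value, which are not independent, and the difference between Ctrl replicates 3 and 1 did so too, at -0.519. Results are therefore also given with the GC trend of every library removed (the GC correction), and where Ctrl replicate 3 changes it, without that library. Among 8 markers listed for epithelial and lung carcinoma cells, VIM, KRT8 and KRT18 were high. VIM is a mesenchymal gene rather than an epithelial one. EPCAM, CDH1 and NKX2-1 had at most 4.84 normalized counts in any library, and KRT19 at most 9.33. All 8 of these markers had a row, and their sum was 99477 to 105946 normalized counts in Ctrl against 57235 to 72391 with NE, most of it VIM. By the test of the next paragraph KRT18, KRT8 and KRT7 were called lower in NE-treated cells, at -1.62, -1.06 and -1.40 on the log2 scale, while VIM was at -0.38, short of a call. After the GC correction KRT18 was still called, at -1.15 (adjusted p = 5.2e-05 by limma). KRT8 was then short of a call, at -0.59, and so was KRT7, at -0.87 (adjusted p = 0.051 by limma). Of 10 leukocyte markers 7 had a row, and their sum was 77.4 to 101.6 normalized counts in Ctrl against 39.3 to 63.2 with NE, most of it ITGAM. The 5 listed fibroblast markers summed to 23.5 to 42.9 in Ctrl and 19.2 to 29.6 in NE-treated cells, and the 5 endothelial markers to 46.1 to 87.2 and 30.02 to 64.2. PTPRC, CD3E and MS4A1 had no row. The part of these shifts in the results below was not tested.

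The comparison of NE-treated with Ctrl cells asks which of these ligand genes change after 48 h of NE. It was tested by limma on log2(normalized count + 1) in the 15013 genes whose mean reached 10 normalized counts. Calls required a p adjusted by Benjamini-Hochberg over all tested genes of under 0.05, and a change of 1 or more on the log2 scale in either direction (the fold criterion). Of the 8 listed genes 6 were tested, and CCL2 and IL1A were under the minimum mean. CXCL3 entered the test only through its NE libraries, its Ctrl mean being 4.75 normalized counts, so a CXCL3 that had not risen would have been left out, and it is kept apart from the counts. Of the other 5, CXCL8, CXCL1 and IL11 rose, where 7.47% of all tested genes were called higher, and LIF fell, where 6.55% were called lower. CXCL3 was called higher too. Without the fold criterion the calls among the other 5 were of the same genes, against 24.6% higher and 25.5% lower of all tested genes. Among these 5, the NE libraries all lay above the Ctrl libraries for CXCL8, CXCL1 and IL11 and all below them for LIF. The shares of all tested genes were 29.7% and 28.9%. For CXCL3 the NE libraries also lay above the Ctrl libraries, and it is again not set against the share. In bulk RNA, a change in the number of expressing cells and a change in RNA per cell cannot be told apart.

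**Figure D1:**
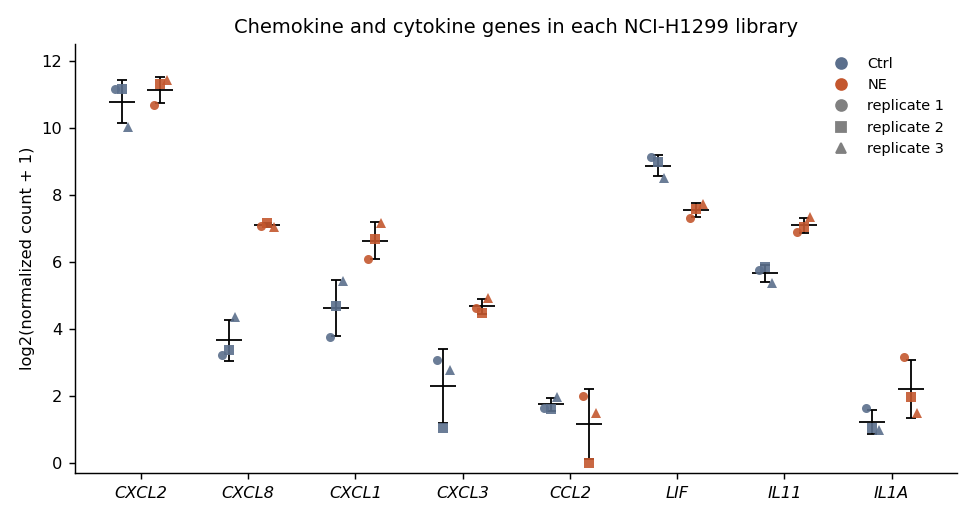
Level of each listed gene on the scale log2(normalized count + 1) in the 3 Ctrl and 3 NE libraries. Points are libraries, the shape gives the replicate number, and black bars give the mean ± SD of 3 values. CXCL8, CXCL1, CXCL3 and IL11 stand higher in every NE library, LIF lower, and CXCL2, CCL2 and IL1A overlap.

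CXCL8 (ENSG00000169429), the gene of interleukin 8, lies on the plus strand of chromosome 4 from 73740519 to 73743716 in hg38. It had 8.38, 9.33 and 19.6 normalized counts in Ctrl replicates 1 to 3. In the NE replicates it had 133.4, 142.4 and 131.6. The NE libraries lay close together and far above every Ctrl library, of which replicate 3 was the highest. The mean went from 12.4 ± 6.22 to 135.8 ± 5.78 (SD, n = 3 each), 10.9-fold. The log2 fold change was 3.44 (standard error 0.34, adjusted p = 0.000129 by limma, 95% CI 2.69 to 4.20). The exact permutation test of these 6 values gave p = 0.1 (two-sided), the smallest that 3 against 3 allow, as it did for each gene below whose groups did not overlap. CXCL8 has the lowest GC content of the listed genes, 31.6% of its exons, and after the GC correction its log2 fold change was 2.68 (adjusted p = 0.000109 by limma).

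CXCL1 (ENSG00000163739), on the plus strand from 73869393 to 73871308, gave normalized counts of 12.6, 24.9 and 42.1 in Ctrl. In the NE libraries it had 66.2, 101.7 and 140.7. The groups did not overlap, but both were spread widely, with the highest value of each in replicate 3. The mean rose from 26.5 ± 14.9 to 102.9 ± 37.3 (SD, n = 3 each), 3.88-fold, which is 2.00 on the log2 scale (standard error 0.44, adjusted p = 0.00472 by limma). After the GC correction it was 1.79 (adjusted p = 0.00944 by limma).

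CXCL3 (ENSG00000163734), on the minus strand from 74036589 to 74038807, had 7.33, 1.04 and 5.88 normalized counts in Ctrl. It had 23.7, 21.3 and 29.2 in the NE libraries. Every NE value was above every Ctrl value. The Ctrl mean of 4.75 ± 3.30 (SD, n = 3) rests on 7, 1 and 6 reads. The log2 fold change was 2.39 (standard error 0.62, adjusted p = 0.0109 by limma), 2.37 after the GC correction (adjusted p = 0.0161 by limma), and 2.26 without NE replicate 3, where it was no longer past the threshold (adjusted p = 0.0523 by limma).

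CXCL2 (ENSG00000081041), on the minus strand from 74097040 to 74099196, did not pass the test. Its normalized counts were 2275, 2262 and 1050 in Ctrl. They were 1626, 2510 and 2727 in NE-treated cells. The groups overlapped, Ctrl replicate 3 being the lowest and NE replicate 1 the next lowest. The log2 fold change was 0.35 (standard error 0.30, adjusted p = 0.359 by limma, 95% CI -0.33 to 1.03), and 0.42 after the GC correction (adjusted p = 0.264 by limma). Without Ctrl replicate 3 it was -0.02 (adjusted p = 0.913 by limma), so that the sign rested on that library.

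CXCL8, CXCL1, CXCL3 and CXCL2 lie in this order within 358678 bases of chromosome 4. Between the ends of CXCL8 and CXCL2 the table listed 7 genes, these 4 included, and tested were these 4 alone. Of the 50-base stretches of the CXCL1, CXCL2 and CXCL3 transcripts, 5.33%, 10.1% and 5.26% also stood in another transcript, and that transcript was in each case from the same 3 genes. No stretch as long as a read was shared. CXCL8 shared no stretch of 50 bases.

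The make-up of the 4 chemokine transcripts was computed per length, as shares of their summed FPKM, which was recomputed here from the recovered reads and the merged exon length. CXCL2 took 99.04%, 98.6% and 94.8% of the sum in the Ctrl libraries and 91.3%, 92.8% and 92.1% in the NE libraries. CXCL8 took 0.197%, 0.220% and 0.956% in Ctrl and 4.05%, 2.84% and 2.401% with NE. CXCL2 remained the main transcript in all 6 libraries, with a smaller share in each NE library than in any Ctrl library (exact permutation test, p = 0.1, the smallest possible). In FPKM, CXCL2 stood 350 ± 219 times above CXCL8 in Ctrl and 31.2 ± 7.99 times in NE-treated cells (SD, n = 3 each). The lowest Ctrl ratio, 99.1, was that of Ctrl replicate 3, against 503 and 449. These shares and ratios hold for the merged exon length. Canonical transcripts, which Ensembl takes to stand for a gene, are shorter. They hold 1115 against 1398 bases in CXCL2 and 1642 against 2588 in CXCL8. Ratios on canonical lengths were not computed. The shares and ratios were also computed without the GC correction. That correction took the log2 fold change of CXCL8 from 3.44 to 2.68 and that of CXCL2 from 0.35 to 0.42. With it the fall of the ratio would be smaller, and its size was not computed.

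**Figure D2:**
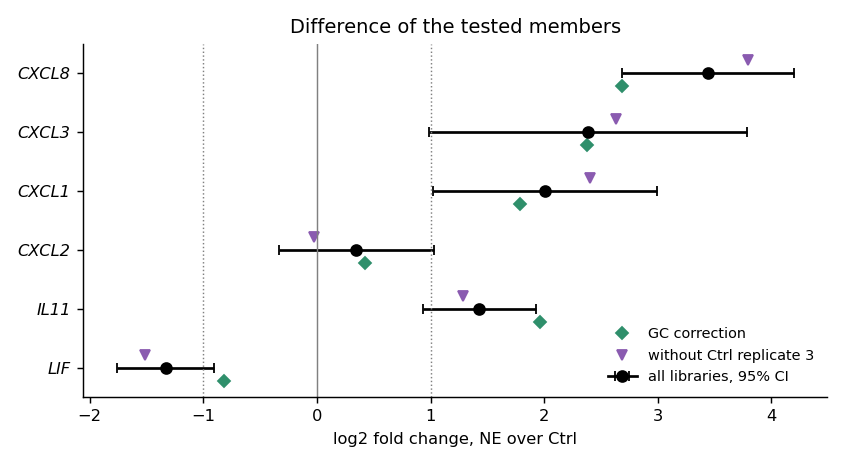
Log2 fold change of NE over Ctrl for the 6 tested genes. Black points and bars give the limma value with its 95% confidence interval over all 6 libraries, green diamonds the value after the GC correction, and purple triangles the value without Ctrl replicate 3; dotted lines mark the fold criterion. CXCL2 spans 0, and LIF lies inside the dotted line only after the GC correction.

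CCL2 (ENSG00000108691), on chromosome 17 from 34255274 to 34257208, was near the detection limit. It had 2, 2 and 3 reads in the Ctrl libraries and 3, 0 and 2 in the NE libraries. The sums of 7 reads (95% Poisson interval 2.81 to 14.4) and 5 reads (1.62 to 11.7) overlapped, and no difference was detectable at this depth. These intervals cover counting error only.

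In the IL6 family, IL11 and LIF moved in opposite directions. IL11 (ENSG00000095752), on the minus strand of chromosome 19 from 55364382 to 55370463, had 53.4, 56.0 and 40.2 normalized counts in Ctrl. In the NE libraries it had 117.6, 129.8 and 159.9. The groups were well apart, with Ctrl replicate 3 the lowest of all. The mean rose from 49.9 ± 8.49 to 135.8 ± 21.8 (SD, n = 3 each), 2.72-fold. The log2 fold change was 1.43 (standard error 0.22, adjusted p = 0.000895 by limma) and 1.96 after the GC correction (adjusted p = 0.000112 by limma). IL11 has the highest GC content of the listed genes, 57.7% of its exons.

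LIF (ENSG00000128342), the gene of leukemia inhibitory factor, lies on the minus strand of chromosome 22 from 30240453 to 30246759. Its normalized counts were 554.0, 508.1 and 363.6 in Ctrl. They were 158.1, 190.8 and 211.1 in the NE libraries. Every NE value was below the lowest Ctrl value, again that of Ctrl replicate 3. The mean went from 475.2 ± 99.4 to 186.7 ± 26.7 (SD, n = 3 each), 0.393 of the Ctrl level. The log2 fold change was -1.33 (standard error 0.19, adjusted p = 0.000625 by limma). After the GC correction it was -0.82, short of the fold criterion with an adjusted p of 0.00206 by limma. The GC content of the LIF exons is 57.1%. The exons of 2 genes on the opposite strand, LIF-AS1 and LIF-AS2, share 2.22% and 2.14% of the LIF exon bases.

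Since LIF fell and IL11 rose without overlap, the ratio of LIF to IL11 had to separate the groups. It is given for its size and spread. Per length, as a ratio of FPKM, it was 7.18, 6.28 and 6.26 in the Ctrl libraries and 0.930, 1.017 and 0.913 in the NE libraries. The mean ratio was 6.57 ± 0.524 in Ctrl and 0.953 ± 0.0557 in NE-treated cells (SD, n = 3 each). The exact permutation test gave p = 0.1, the smallest possible. That p was fixed by the values of LIF and IL11 and adds nothing to them.

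IL1A (ENSG00000115008), on the minus strand of chromosome 2 from 112773925 to 112784493, had 2, 1 and 1 reads in Ctrl and 8, 3 and 2 reads in the NE libraries. The groups overlapped at 2 reads, and the NE sum rested mainly on replicate 1. The sums were 4 reads (95% Poisson interval 1.09 to 10.2) and 13 reads (6.92 to 22.2), and the exact permutation test over libraries gave p = 0.2 (two-sided). A difference was not shown at this depth.

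The order of the levels was compared per length, in FPKM. In Ctrl it ran from CXCL2 (73.6 ± 26.8) through LIF (6.80 ± 1.31), CXCL1 (1.09 ± 0.629), IL11 (1.03 ± 0.158), CXCL8 (0.269 ± 0.140) and CXCL3 (0.119 ± 0.0825) to CCL2 (0.0682 ± 0.0156) and IL1A (0.0376 ± 0.0169). The mean ± SD ranges (n = 3) of CXCL1 and IL11 overlapped, as did those of each neighbouring pair from CXCL8 down. In NE-treated cells CXCL2 (100.7 ± 29.2) still led. CXCL1 (4.66 ± 1.87), CXCL8 (3.204 ± 0.181), IL11 (3.11 ± 0.627) and LIF (2.96 ± 0.543) followed within overlapping ranges. CXCL3 (0.683 ± 0.135) stood below them, and IL1A (0.125 ± 0.0914) and CCL2 (0.0498 ± 0.0456) were last and overlapped. In this order LIF was second in Ctrl and level with 3 other members in NE-treated cells. The order rests on merged exon lengths. The canonical transcript is shorter above all in CXCL8 (1642 against 2588 bases), CXCL3 (1075 against 2219) and CCL2 (741 against 1935). It is as long as the merged exons in LIF (3871) and IL1A (2017). On canonical lengths CXCL8, CXCL3 and CCL2 would stand higher relative to LIF and IL1A, and that order was not computed. The levels were not corrected for GC content either.

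Related genes were counted in lists of ligands, receptors, signal carriers, inhibitors and response genes. Of 142 listed by name 108 had a row and 85 were tested, of which 9 rose and 10 fell, with a median log2 fold change of -0.12. The shares of all tested genes to read these and the following counts against are again 7.47% higher and 6.55% lower. Without the fold criterion they are 24.6% and 25.5%. These shares hold for counts made without the GC correction. After the GC correction 4 of the related genes were called higher and 6 lower, against 548 and 343 of all 14955 genes in that fit. Of the ligands related to the members, 0 of 3 tested other CXC chemokines, 0 of 2 other CC chemokines and 0 of 1 IL1-family genes were called. By limma's unadjusted p under 0.05, 1 other CXC and 1 other CC chemokine gene were lower, and edgeR, DESeq2 and voom called 0 in these 3 lists. Only CCL5, an attractant of T cells named after its values were seen, was lower in limma without the fold criterion, at -0.80 (adjusted p = 0.0466). It did not pass after the GC correction, at -0.44 (adjusted p = 0.219). Without Ctrl replicate 3 CCL5 was called lower, at -1.06 (adjusted p = 0.00193 by limma). Of 5 tested other IL6-family ligands 1 was called, EBI3, the gene of a subunit of IL27 and IL35. EBI3 had 76.4, 83.0 and 56.8 normalized counts in Ctrl and 10.9, 26.2 and 17.4 in the NE libraries, and its log2 fold change was -1.997 (adjusted p = 0.00178 by limma). CLCF1, of the same list and named after its values were seen, did not pass, at 0.39 (adjusted p = 0.136 by limma). After the GC correction CLCF1 was higher under the fold criterion, at 0.93 (adjusted p = 0.00347 by limma). Of 5 tested further cytokine genes of the NF-kB response 2 fell and 0 rose. They were CSF1, the gene of the macrophage growth factor, at -1.63 (adjusted p = 0.000582 by limma), and IL32 at -1.72 (adjusted p = 0.000404 by limma). EBI3, CSF1 and IL32 were called in every alternative that could be run.

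**Figure D3:**
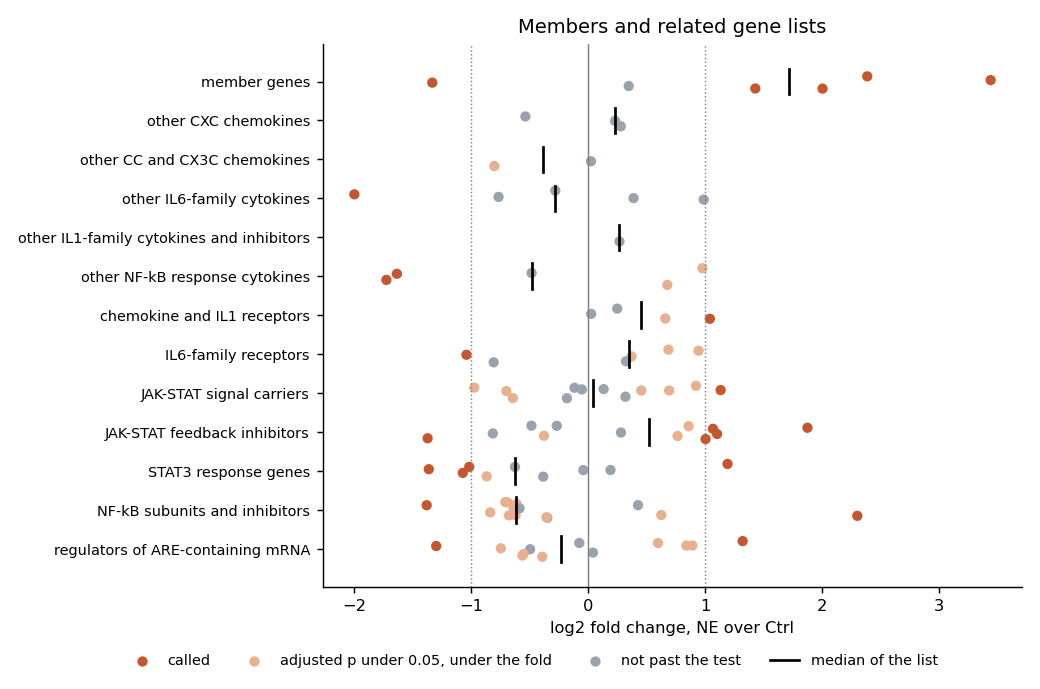
Log2 fold change of NE over Ctrl for each tested gene of the member list and of the related lists. Each point is a gene, colour gives the limma call, short black bars give the list's median, and dotted lines mark the fold criterion. CXCL8, CXCL1 and IL11 lie above 1, as does CXCL3, which entered the test only through its NE libraries. The other ligand lists hold 1 to 5 tested genes each, none above 1. Genes under the minimum mean are not shown. The NF-kB list, before the GC correction, lies mostly below 0.

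Receptors of these ligands were then examined. CXCR1, a receptor of CXCL8, had reads in 1 Ctrl library only, and CXCR2, ACKR1 and CCR2 had no row. Of 4 tested chemokine and IL1 receptors 1 rose, CXCR4, the receptor of CXCL12. CXCR4 had 18.8, 11.4 and 9.80 normalized counts in Ctrl and 30.6, 23.2 and 29.2 in the NE libraries, and its log2 fold change of 1.04 (adjusted p = 0.0484 by limma) was called in 4 of 19 alternatives, and by neither edgeR nor DESeq2. IL1R1, the signalling receptor of IL1A, was higher under the fold criterion, at 0.66 (adjusted p = 0.00265 by limma). IL1RAP, its co-receptor, did not pass, at 0.25 (adjusted p = 0.236). Without Ctrl replicate 3 IL1RAP was at 0.42 (adjusted p = 0.00923 by limma). After the GC correction it was at -0.36 (adjusted p = 0.0359 by limma), so that its direction rested on the processing.

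Of 6 tested IL6-family receptors 1 fell and 0 rose, and without the fold criterion LIFR, IL6ST and OSMR were higher and IL6R was lower. After the GC correction 1 was higher without the fold criterion, IL27RA, and IL6R remained the 1 that was lower. IL27RA, named after its values were seen, went from 0.32 (adjusted p = 0.0593 by limma) to 0.86 (adjusted p = 0.000145 by limma). OSMR, a receptor subunit for oncostatin M, was at 0.37 (adjusted p = 0.0226 by limma) and at 0.13 after the GC correction (adjusted p = 0.313), and was named after its values were seen. IL6R, the ligand-binding receptor of IL6, had 96.3, 84.0 and 116.6 normalized counts in Ctrl and 47.4, 36.8 and 60.3 in the NE libraries. Its groups did not overlap, and the log2 fold change was -1.04 (adjusted p = 0.00752 by limma), called in 14 of 20 alternatives, and -0.79 after the GC correction (adjusted p = 0.0396 by limma). Without Ctrl replicate 3 IL6R was lower under the fold criterion, at -0.92 (adjusted p = 0.00763 by limma). With the GC correction as well it did not pass, at -0.62 (adjusted p = 0.0707 by limma). LIFR, the receptor that binds LIF, had 146.6, 145.2 and 225.4 in Ctrl and 357.7, 292.5 and 329.9 in the NE libraries. LIFR was thus higher in every NE library while LIF was lower. The log2 fold change of LIFR was 0.94 (adjusted p = 0.00368 by limma), and 0.33 after the GC correction (adjusted p = 0.0887). Without Ctrl replicate 3 LIFR was called higher, at 1.15 (adjusted p = 1.03e-05 by limma). IL6ST, the shared subunit gp130, was at 0.69 (adjusted p = 0.0173 by limma) and at 0.00 after the GC correction (adjusted p = 0.999). IL11RA, which binds IL11, was at -0.81 and did not pass (adjusted p = 0.0564 by limma). Without Ctrl replicate 3 IL11RA was called lower, at -1.01 (adjusted p = 0.0093 by limma). After the GC correction it was at -0.43 (adjusted p = 0.276 by limma).

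**Figure D4:**
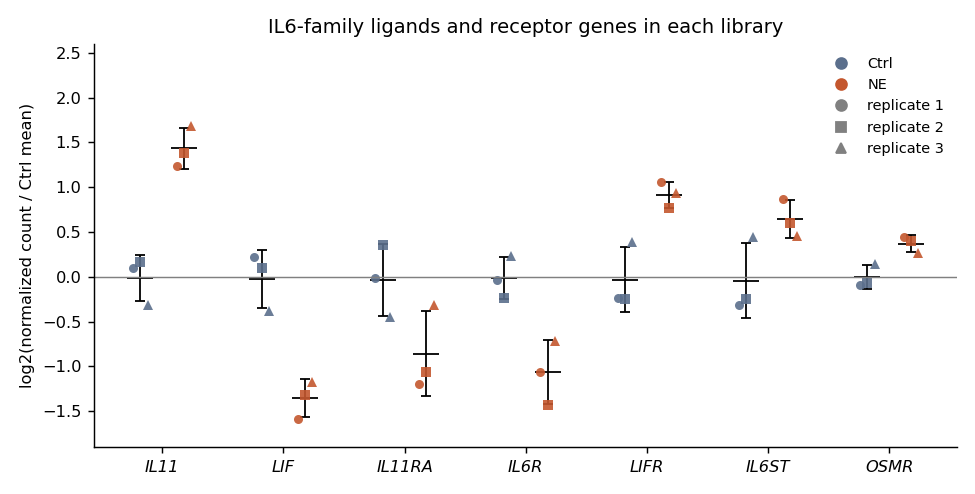
IL6-family ligands IL11 and LIF and 5 receptor genes of the IL6 family (IL11RA, IL6R, LIFR, IL6ST and OSMR). Shown is each library's normalized count relative to the gene's Ctrl mean on a log2 scale. Points are libraries, the shape gives the replicate number, and black bars give the mean ± SD of 3 log2 values. IL11 and LIF lie on opposite sides of 0 in every NE library, and the Ctrl replicate 3 points of LIFR and IL6ST lie towards the NE libraries.

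STAT3, the transcription factor downstream of gp130, was level, at 2510 ± 85.2 normalized counts in Ctrl and 2427 ± 228.3 with NE (SD, n = 3 each), with a log2 fold change of -0.05 (adjusted p = 0.697 by limma). Of 12 tested carriers of the JAK-STAT signal 1 rose, GAB1, an adaptor of the receptor complex, at 1.13 (adjusted p = 0.00178 by limma), and at 0.52 after the GC correction. Of 12 tested feedback inhibitors 4 rose and 1 fell. SOCS2, an inhibitor of growth hormone and cytokine receptors, went from 156.0, 132.7 and 136.2 normalized counts in Ctrl to 535.6, 514.3 and 513.5 in the NE libraries. It was the clearest of the list, with no overlap and a log2 fold change of 1.88 (adjusted p = 3.5e-05 by limma), and 2.04 after the GC correction. SOCS6 (1.10), PIAS1 (1.07) and SOCS4 (1.005) also rose, and none of these 3 reached the fold criterion after the GC correction, where SOCS4 also lost the test (adjusted p = 0.0533 by limma). CISH, a STAT5 response gene and inhibitor, fell (log2 fold change -1.37, adjusted p = 0.0333 by limma), and 11 of 19 alternatives called it, the GC correction not among them (-0.87, adjusted p = 0.158). SOCS3, the inhibitor that binds gp130, did not pass, at -0.48 (adjusted p = 0.106). Without Ctrl replicate 3 SOCS3 was lower under the fold criterion, at -0.72 (adjusted p = 0.00133 by limma). After the GC correction it was at 0.11 (adjusted p = 0.63 by limma).

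Of 9 tested STAT3 response genes 1 rose and 3 fell. VEGFA, the gene of the endothelial growth factor, had 660.8, 607.7 and 467.4 normalized counts in Ctrl and 1111, 1321 and 1531 in the NE libraries, a log2 fold change of 1.19 (adjusted p = 0.000559 by limma). MYC, a growth-promoting transcription factor gene, fell from 3197 ± 487.6 to 1239 ± 136.4 (SD, n = 3 each), at -1.36 (adjusted p = 0.000165 by limma). PIM1, a kinase gene, was at -1.07 and TIMP1, a metalloproteinase inhibitor gene, at -1.01, and both lost the fold criterion after the GC correction, at -0.59 and -0.46. VEGFA and MYC were called in all 20 alternatives.

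Of 14 tested NF-kB subunits and inhibitors 1 rose and 1 fell, and without the fold criterion 2 were higher and 9 lower, against 24.6% and 25.5% of all tested genes. After the GC correction 1 was higher and 3 were lower without the fold criterion, against 2176 and 2644 of all 14955 genes in that fit. The median of the list was then -0.12 in place of -0.61. REL, the gene of c-Rel, rose from 32.8 ± 8.54 to 162.6 ± 17.6 normalized counts (SD, n = 3 each), at 2.30 (adjusted p = 0.000179 by limma), and NFKBIE, an inhibitor gene, fell at -1.38 (adjusted p = 6.4e-05 by limma). NFKB1, the gene of p105 and p50, was lower at -0.62 (adjusted p = 0.00254 by limma). NFKBIA, the gene of the main inhibitor, did not pass, at -0.58 (adjusted p = 0.0616). Without Ctrl replicate 3 NFKBIA was lower under the fold criterion, at -0.84 (adjusted p = 0.000281 by limma). With the GC correction it was at -0.21 (adjusted p = 0.423 by limma). After the GC correction REL was at 1.67, NFKB1 at -1.11 and NFKBIE at -0.76.

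Of 12 tested regulators of AU-rich mRNA 1 rose and 1 fell. ZC3H12C, of the Regnase family of RNA-cleaving enzymes, had a log2 fold change of 1.32 (adjusted p = 0.000266 by limma). ARID5A, which binds and stabilizes IL6 mRNA, was at -1.30 (adjusted p = 0.00233 by limma). After the GC correction ZC3H12C was under the fold criterion, at 0.65 (adjusted p = 0.00145 by limma), and ARID5A did not pass the test, at -0.63 (adjusted p = 0.0578).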

How the data were processed

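RNA-seq of NCI-H1299 cells, 3 Ctrl and 3 NE libraries, was used as 1 table. The authors aligned reads to hg38 with HISAT2 (2.0.5) and counted them per gene with featureCounts (1.5.0-p3), per the submitters' processing notes, before testing with DESeq2. FPKM is the unit the methods name, yet the signal that the authors deposited holds counts per gene scaled by a single factor for every library. Undoing that factor gave whole reads for 100% of the values (within 0.05 of a read). Columns were matched to samples by group letter and replicate number.

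Computed here were the log2(value + 1) comparison with limma 3.58.1 (lmFit, eBayes with trend) over 15013 genes with a mean of at least 10, the exact permutation test of single values, FPKM from the recovered reads, and motif matches. GC content and exon length came from GENCODE v44, which held 25813 of 26025 identifiers. The GC correction took out, library by library, a natural spline on GC content (5 degrees of freedom). The tests were checked on simulated data. Alternatives were other pseudocounts, filters and scalings, count models on the recovered reads (voom, DESeq2 1.42.0, edgeR 4.0.16), a replicate block, the GC correction, and each library left out. R was 4.3.3.

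The genes, related lists and settings were chosen with earlier results of these data known. Named were all members, related genes past the call, and 14 receptors and signalling genes whatever their values, with markers where a result turned on them. Reads carry no molecular identifiers.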

Additional observations from a re-analysis of the deposited data

How the results depend on the processing

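CXCL1, CXCL8 and IL11 were called in all 20 alternatives, with log2 fold changes of 1.57 to 2.41, 2.68 to 3.796 and 1.28 to 1.96. LIF had an adjusted p under 0.05 in all 20 (highest 0.0132, by limma), but after the GC correction, with or without a replicate block, its value was -0.82, and -0.91 with Ctrl replicate 3 also left out, a setting chosen after seeing the data, so that 0 members were called lower in these 3 alternatives. CXCL3 was called in 18 of 19, and without each library in turn ran from 1.75 to 2.77, with the call lost at 2.26 without NE replicate 3 (adjusted p = 0.0523 by limma). Leaving out libraries took CXCL2 from -0.0225, without Ctrl replicate 3, to 0.58.

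Over all genes, 548 genes were higher and 343 lower after the GC correction, 474 and 317 with the replicate block added, and 650 and 523 with Ctrl replicate 3 left out. Without the fold criterion there were 3693 and 3828. Leave-one-out fits gave 815 to 1628 higher and 777 to 1507 lower, and both were highest when Ctrl replicate 3 was dropped. The replicate block alone gave 1049 and 924. Same-numbered libraries deviated from their group means with correlations of -0.163, 0.0799 and -0.151. Deviations from a mean of 3 depend on each other, and Ctrl replicate 3 stood apart. These values therefore cannot decide whether same-numbered libraries were paired. Among related genes the GC correction gave 4 higher and 6 lower, 3 and 6 with the replicate block, 3 and 6 with Ctrl replicate 3 left out, and 24 and 28 were past the adjusted p alone. Leave-one-out fits gave 6 to 14 higher and 8 to 12 lower related genes, with 14 higher without Ctrl replicate 3. For these changes the cause was not tested. Counts of a few reads limited CCL2, IL1A and the Ctrl values of CXCL3.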
